A study of Homo sapiens with 60 samples.

Results

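The autophagy and lysosome genes described here are 44 human genes named by symbol, covering autophagy receptors and machinery, the TFEB axis, lysosomal membrane proteins and enzymes, and the lysosomal proton pump. They were matched by symbol to the rows of the gene table, and all 44 were found among its 60675 gene rows. Of these, 43 passed the filter on low counts and were among the 16890 genes tested. RRAGD, a Rag GTPase gene, reached at most 0.128 CPM (counts scaled to a common library size) in any library and was not tested.

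The study sequenced RNA of HT29, a human colorectal adenocarcinoma cell line, in 60 libraries of 25 groups, each collected after 24 h with an herbal extract or with the solvent alone. The vehicle group had 3 libraries, labelled 0.1% DMSO, whereas the description of the series gives 2% DMSO. Water extracts of the decoctions Yijin-tang and Soshiho-tang and ethanol extracts of Zizyphi Semen, Longan Arillus, Schisandrae Fructus and Liriopis seu Ophiopogonis Tuber were given at 500 (high), 100 (medium) and 20 (low) µg/mL, with 3 libraries at each dose, or 2 for Soshiho-tang. Aucklandiae Radix, an ethanol extract given at 370, 74 and 14.8 µg/mL, had 1 library at each dose. So had the ethanol extract of Polygalae Radix, for which the doses were 380, 76 and 15.2 µg/mL, and values of both carry no test. The library names place the vehicle in a set called C1, both decoctions in set 8, Liriopis and Schisandrae in set 9, Longan and Zizyphi in set 10, and Polygalae and Aucklandiae in set 11. Extract and library set therefore cannot be told apart in any comparison with the vehicle, but doses of 1 extract, and both extracts of a set, can be compared inside a set. The labels do not say whether replicates were separate cultures, so p-values measure the spread between these libraries, which may be technical.

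Autophagy wraps cytoplasm or damaged organelles in a double membrane and delivers them to the lysosome. Receptor proteins such as p62, encoded by SQSTM1, tie cargo to ATG8 proteins on the growing membrane, and proton pumps acidify the lysosome so that its hydrolases can work. The transcription factors TFEB and TFE3 switch on many of these genes when the kinase mTORC1 releases them. RNA levels of these genes do not measure autophagic flux, and SQSTM1 is also a target of the stress factor NRF2.

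TFEB and TFE3 bind a DNA element whose core letters are CACGTG. These letters were searched on either strand in the 250 bases upstream of each start in the RefSeq promoter table (build GRCh38.p14), which held 43 such windows for 34 of the 44 genes. CACGTG lay in 7 of the 43 windows (16.3%), beside 6.34% of all 35116 windows, and the longer form TCACGTGA, which contains it, lay in 4 (9.3%) beside 0.854%. The windows with CACGTG were those of ATP6V0D1, CTSA, CTSD, LAMP1, MCOLN1, NEU1 and RRAGC. TGACNNNGC, the core letters bound by NRF2, lay in 11 windows (25.6%) beside 10.9% of all windows. The windows of SQSTM1 were not among those 11. All matches given here are of letters and are not measured sites. MCOLN1, NEU1 and RRAGC stood at high ratios in single libraries. CTSD, CTSA and ATP6V0D1 were also past 1.5-fold in Aucklandiae high dose, and their windows are not printed. LAMP1, with the most matches, had the narrowest range of group means over all 19 replicated groups. The window sequences of MCOLN1, NEU1, RRAGC and LAMP1 are given as examples. Each is written 5′ to 3′ on the strand of its gene, limited to bases upstream of both the RefSeq and the GENCODE start, with CACGTG in capitals. They cover chr19:7522374-7522623 on the plus strand (MCOLN1), chr6:31862907-31863071 on the minus strand (NEU1), chr1:38859824-38860022 on the minus strand (RRAGC) and chr13:113296989-113297238 on the plus strand (LAMP1).
MCOLN1: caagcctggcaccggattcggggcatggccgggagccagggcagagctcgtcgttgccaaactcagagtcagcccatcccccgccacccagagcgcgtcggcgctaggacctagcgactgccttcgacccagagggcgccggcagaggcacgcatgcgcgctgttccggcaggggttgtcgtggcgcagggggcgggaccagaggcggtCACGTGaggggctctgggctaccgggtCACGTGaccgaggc
NEU1: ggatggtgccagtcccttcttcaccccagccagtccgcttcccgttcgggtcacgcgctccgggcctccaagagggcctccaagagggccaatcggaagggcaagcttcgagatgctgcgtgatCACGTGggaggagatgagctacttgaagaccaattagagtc
RRAGC: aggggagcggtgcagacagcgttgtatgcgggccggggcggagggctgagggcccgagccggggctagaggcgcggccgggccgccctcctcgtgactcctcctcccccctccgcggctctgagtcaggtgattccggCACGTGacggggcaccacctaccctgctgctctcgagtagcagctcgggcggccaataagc
LAMP1: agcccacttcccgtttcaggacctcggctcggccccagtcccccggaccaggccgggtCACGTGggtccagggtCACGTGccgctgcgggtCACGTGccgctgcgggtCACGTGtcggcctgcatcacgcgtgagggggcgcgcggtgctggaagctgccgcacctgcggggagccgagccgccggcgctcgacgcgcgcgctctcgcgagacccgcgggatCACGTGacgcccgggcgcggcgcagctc
LAMP1 held 5 matches, MCOLN1 held 2, and NEU1 and RRAGC held 1 each.

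Library totals ran from 18161717 to 35128954 estimated counts. All 10 epithelial markers, among them EPCAM, KRT8 and CDX1, had counts in every library, with summed levels of 8407 to 18254 CPM. A pair of libraries stood apart. Yijin-tang low dose replicate 2 differed from the other 2 libraries of its group with an SD of 1.06 on the log2 scale over all genes, against at most 0.515 for any library outside that group, and ribosomal protein genes took 11.5% of its counts against at most 5.88% elsewhere. Soshiho-tang high dose replicate 3 held reads of blood cell genes: HBB stood at 3.36 CPM and HLA-DRA at 3.93 CPM, the 10 leukocyte markers summed to 29.9 CPM against at most 8.84 CPM in the other libraries, none of the 10 was at 0, and 1 of 5 erythroid markers was at 0. The part of these signals in the results below was not tested directly, and results with a test are given from a fit of all 54 libraries in replicated groups and from a fit of the 52 libraries that remain without this pair. In the 52-library fit Soshiho-tang high dose is a single library that is assumed to vary like the other groups. In bulk RNA, fewer cells of a type and less RNA per cell cannot be told apart.

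In the vehicle libraries the members spanned a wide range of levels per kilobase of exon. CTSD, the aspartic protease cathepsin D, was highest at 241 CPM per kb, followed by PSAP, the precursor of the saposins that help degrade sphingolipids, at 146 CPM per kb and CTSZ, cathepsin Z, at 145 CPM per kb. LAMP1, a main glycoprotein of the lysosomal membrane, stood at 68.4, SQSTM1 at 46.7 and GABARAP at 38.3 CPM per kb. At the low end were GABARAPL1 (1.56), WIPI1 (1.46) and RRAGD (0.00228 CPM per kb). All lysosomal proteases except CTSL (1.81 CPM per kb) were well above the regulators TFEB (2.71) and FLCN (1.63 CPM per kb). Over the 19 replicated groups, the group means of LAMP1 spanned only 0.11 on the log2 scale, the narrowest range. Those of NPC1 spanned 1.00, the widest, from Yijin-tang low dose to Soshiho-tang high dose, the groups that hold the libraries standing apart. Without these groups NPC1 spanned 0.18, WIPI1 had the widest range at 0.47, and LAMP1 and LAMP2 were level as the narrowest at 0.097 each. Estimated counts of SQSTM1, GABARAP, BECN1 and CTSD were not whole numbers (to within 1e-09) in 60 of 60 libraries, and those of NBR1, MAP1LC3B, ATG7, ATG12 and CTSA in 59, HEXA in 58, WIPI1 in 57, FLCN in 54 and NPC1 in 51, which happens when reads are divided between genes, and their values are less certain for that reason. MCOLN1 shares exon sequence with PNPLA6 on its own strand, SQSTM1 overlaps exons of MGAT4B and MRNIP on the other strand, and NPC1 overlaps RMC1 on the other strand.

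**Figure D1:**
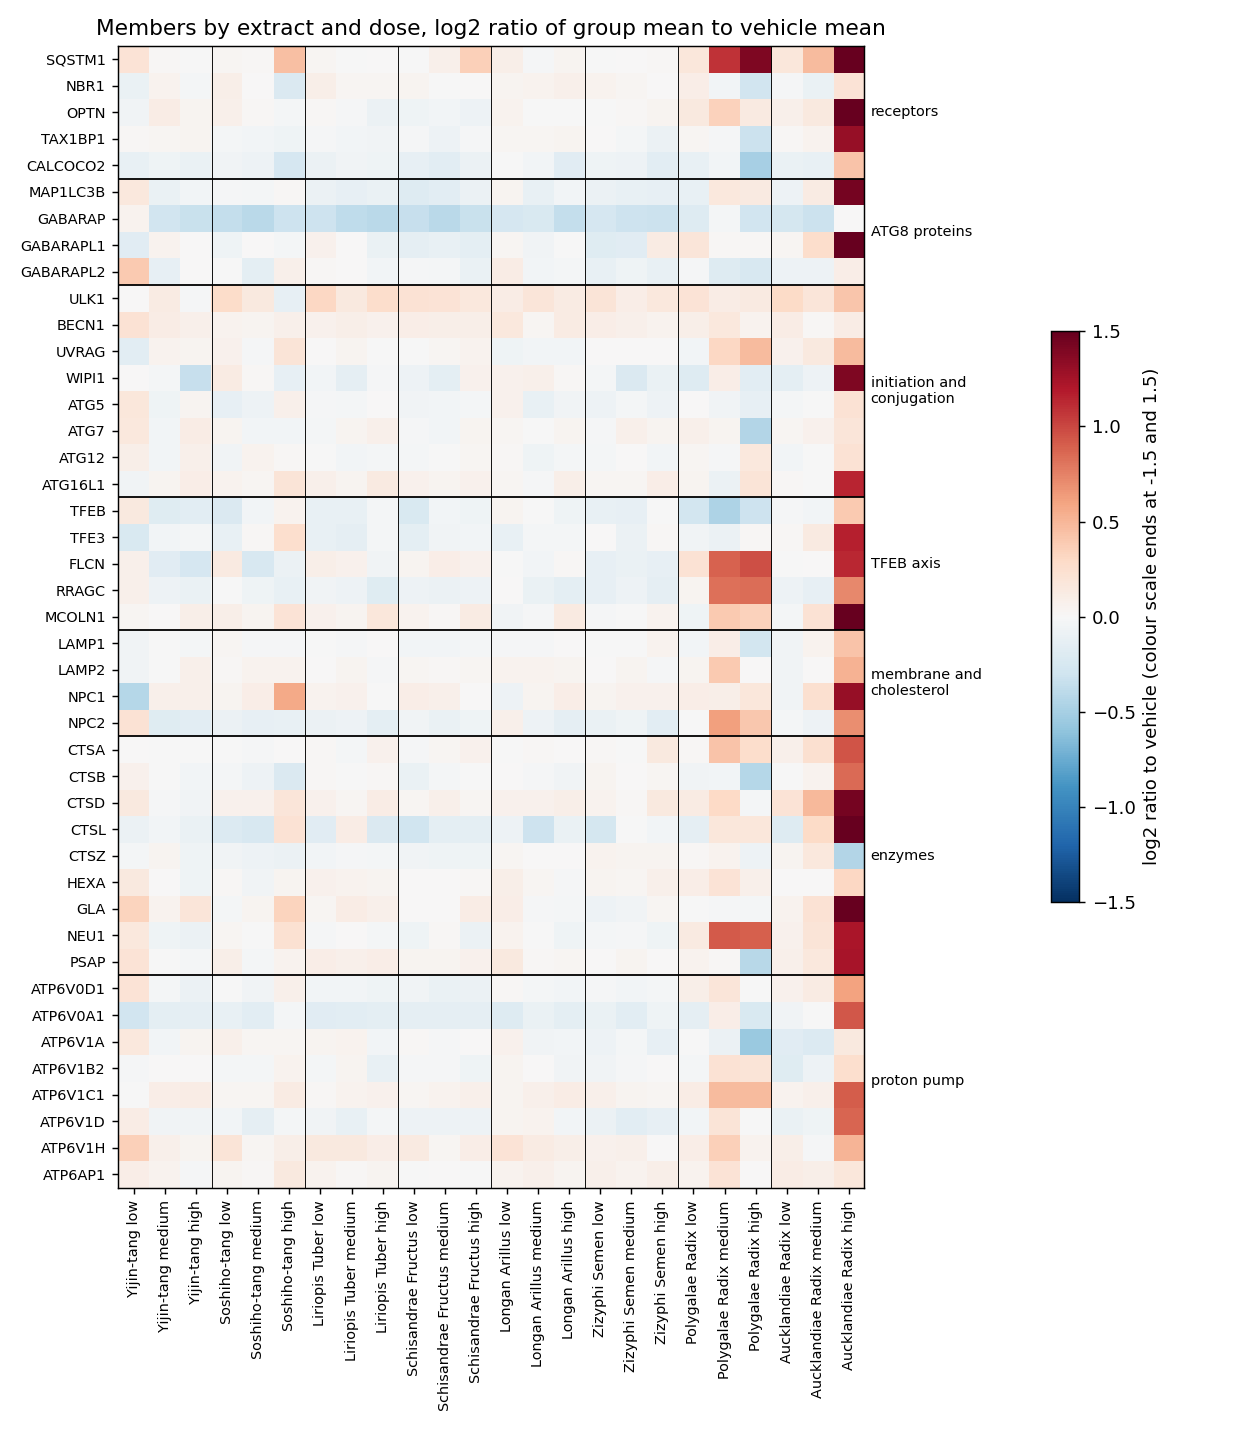
Log2 ratio of each group mean to the vehicle mean (colour) for the 43 tested members (rows, by role) in 24 extract doses (columns, low to high within each extract); Polygalae and Aucklandiae columns are single libraries. Most cells are pale, SQSTM1 is red in several high-dose columns, GABARAP is blue in nearly all columns of replicated extracts, and the column of Aucklandiae Radix high dose is red in all rows but a few.

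Among the 6 high doses with replicates, Soshiho-tang had the most called members in either fit. Against the vehicle, 8 of 43 members passed an adjusted p of 0.05, 5 higher and 3 lower, beside 7.93% of all genes tested. NPC1, which exports cholesterol from the lysosome, rose by 0.57 on the log2 scale (SE 0.14, adjusted p = 0.00440), and SQSTM1 rose by 0.46 (SE 0.07, adjusted p = 3.3e-05). GLA, the lysosomal alpha-galactosidase, rose by 0.35, NEU1, a sialidase, by 0.23, and ATG16L1, part of the complex that attaches LC3 to membranes, by 0.19. The receptors CALCOCO2 and NBR1 fell by 0.25 and 0.22, and the cysteine protease CTSB fell by 0.21. The median of the 43 members was 0.04, beside -0.00035 over all genes.

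Without the libraries that stand apart, 11 members passed beside 12.7% of all genes. NPC1 (0.60), SQSTM1 (0.42), CALCOCO2 (-0.38), CTSB (-0.28) and NBR1 (-0.21) passed again, joined by TFE3 (0.24), CTSD (0.23), UVRAG (0.23), GABARAP (-0.59), NPC2 (-0.37) and RRAGC (-0.29). GLA (0.15), NEU1 (0.14) and ATG16L1 (0.11) did not pass there. MAP1LC3B (0.02), GABARAPL1 (0.00252), TFEB (0.06), LAMP1 (-0.01) and CTSD (0.18) did not pass in the 54-library fit. SQSTM1 kept its call under all 11 alternatives, and NPC1 under 10, with an adjusted p of 0.0526 without Soshiho-tang high dose replicate 2. The other 6 calls were lost on leaving out at least 1 library. CALCOCO2 lost its call without high dose replicate 2 (-0.14) or vehicle replicate 2 (-0.20), and CTSB without high dose replicate 2 (-0.15) or vehicle replicate 3 (-0.18). GLA was lost without high dose replicate 3 (0.17) or vehicle replicate 1 (0.32) or 2 (0.36), ATG16L1 without high dose replicate 3 (0.13) or vehicle replicate 1 (0.18) or 2 (0.17), and NEU1 without high dose replicate 3 (0.16) or vehicle replicate 2 (0.19) or 3 (0.24). For NBR1 the adjusted p was 0.0507 to 0.309 on leaving out any 1 of the 5 libraries.

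For Schisandrae Fructus at the high dose, 1 of 43 members was called against the vehicle, SQSTM1, beside 0.693% of all genes. SQSTM1 rose by 0.35 on the log2 scale (SE 0.07, adjusted p = 0.00287), and this call held under all 12 alternatives. In the 52-library fit GABARAP (-0.35) also passed, making 2 members beside 6.39% of all genes. LAMP1 (-0.03), CTSD (0.03), TFEB (-0.07), MAP1LC3B (-0.09) and GABARAPL1 (-0.15) did not pass.

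The other 4 high doses had no called member in the 54-library fit with edgeR, and none with DESeq2. For Yijin-tang the count was 0 of 43 beside 1.05% of all genes, with 3 members at an unadjusted p under 0.05. For Liriopis it was 0 beside 0.45%, with 5 members under 0.05. For Longan it was 0 beside 0.0829%, with 3 such members, and for Zizyphi 0 beside 0.16%, with 4. SQSTM1 lay between -0.00892 (Yijin-tang) and 0.04 (Longan), LAMP1 between -0.03 and 0.05, CTSD between -0.05 and 0.15, MAP1LC3B between -0.12 and -0.04, GABARAPL1 between -0.10 and 0.12 and TFEB between -0.16 and -0.00267. In the 52-library fit, GABARAP passed in all 4. It was 1 of 3 members called for Yijin-tang (with FLCN at -0.26 and GLA at 0.18) beside 7.46% of all genes, 1 of 2 for Liriopis (with ULK1 at 0.26) beside 5.06%, and the only member called for Longan beside 2.31% and for Zizyphi beside 3.25%.

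At the medium and low doses, the 54-library fit called members in 1 of 12 comparisons with the vehicle, the low dose of Yijin-tang. There 8 of 43 members passed beside 12.1% of all genes. GABARAPL2 rose by 0.52, ATP6V1H by 0.37, GLA by 0.37 and BECN1 by 0.23, and ATP6V0A1 fell by 0.27. SQSTM1 (0.23), PSAP (0.21) and HEXA (0.16) also rose. None of the 8 was called in the 52-library fit, in which GABARAPL2 stood at -0.018 and ATP6V1H at 0.23. GABARAPL2 measured 46.1, 108 and 45.5 CPM in its 3 libraries, against 48.0, 46.3 and 44.8 CPM in the vehicle, so that replicate 2 stood far above all of the others. Over the 12 comparisons the 8 calls became 0 without Yijin-tang low dose replicate 2, 23 and 18 without its replicate 1 and 3, and 2, 4 and 4 without vehicle replicate 1, 2 and 3. The other 11 comparisons called 0 members, with 0 to 4 members each at an unadjusted p under 0.05. The share of all genes called there was 0.42% for Yijin-tang medium, 0.237% and 0.101% for Soshiho-tang medium and low, 0.373% and 0.491% for Liriopis medium and low, and 0.474% and 0.16% for Schisandrae medium and low. It was 0.0118% and 0.107% for Longan medium and low, and 0.0296% and 0.0355% for Zizyphi medium and low. DESeq2 made 12 calls of members over the 12 comparisons, against 8 with edgeR. The share of all genes called is not given for DESeq2 or for the fits that left out 1 library, so those counts do not set members apart.

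The 52-library fit made 19 calls over the same 12 comparisons, 11 of them of GABARAP. The medium and low doses had 1 and 1 called member for Yijin-tang beside 4.59% and 2.05% of all genes, 1 and 1 for Soshiho-tang beside 1.72% and 1.92%, and 2 and 3 for Liriopis beside 5.91% and 6.55%. They had 1 and 2 for Schisandrae beside 6.03% and 4.86%, 0 and 5 for Longan beside 0.959% and 4.8%, and 1 and 1 for Zizyphi beside 0.805% and 1.62%. The other 8 calls were ULK1 in Liriopis low dose (0.31), ATP6V0A1 in Liriopis medium (-0.16) and low dose (-0.17), MAP1LC3B in Schisandrae low dose (-0.19) and, in Longan low dose, ATP6V1H (0.21), ATP6V0A1 (-0.19), BECN1 (0.16) and PSAP (0.15). These members differed from the vehicle by less than 1.5-fold in every such comparison.

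Comparing high with low dose keeps both groups inside 1 library set. With Soshiho-tang, 5 of 43 members passed beside 6.29% of all genes: NPC1 rose by 0.52 (SE 0.15, adjusted p = 0.0271), SQSTM1 by 0.43 (SE 0.08, adjusted p = 0.000464), GLA by 0.38 and TFE3 by 0.36, and NBR1 fell by 0.31 (SE 0.08, adjusted p = 0.00767). The 52-library fit called 8 beside 7.95%, among them SQSTM1 (0.40), NPC1 (0.55), TFE3 (0.36), TFEB (0.38), NBR1 (-0.31), CALCOCO2 (-0.33), NPC2 (-0.28) and CTSB (-0.26), and not GLA (0.18). SQSTM1 kept its call on leaving out any 1 library, but not in a fit of only these groups (adjusted p = 0.0576). The NPC1 and TFE3 calls were lost on leaving out any 1 of the 4 libraries, with values of 0.49 to 0.56 and 0.33 to 0.40. NBR1 lost its call without high dose replicate 3 (-0.29, adjusted p = 0.114) or low dose replicate 2 (-0.27, adjusted p = 0.113), and GLA without high dose replicate 3 (0.19, adjusted p = 0.688) or either low dose library.

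With Schisandrae, SQSTM1 was the 1 member called between high and low dose, beside 0.189% of all genes in the 54-library fit and 0.533% in the 52-library fit. It rose by 0.36 (SE 0.07, adjusted p = 0.00549), and without high dose replicate 3 the value was 0.34 with an adjusted p of 0.0533. With Yijin-tang, 15 of 43 members passed beside 21% of all genes, 13 of them lower at the high dose, but in the 52-library fit only 1 passed beside 0.675%. That member was FLCN, a regulator that keeps TFE3 and TFEB in check through the Rag GTPases: it fell by 0.34 (SE 0.08, adjusted p = 0.00737) in the 54-library fit and by 0.40 (adjusted p = 0.0112) in the 52-library fit, and it did not pass in a fit of only these groups (adjusted p = 0.763). FLCN measured 13.6, 13.7 and 12.9 CPM at the high dose and 17.7, 15.3 and 17.7 CPM at the low dose, without overlap. The 8 largest falls were GABARAPL2 (-0.52), GABARAP (-0.48), NPC2 (-0.42), TFEB (-0.34), FLCN (-0.34), WIPI1 (-0.33), ATP6V1H (-0.33) and ATP6V0D1 (-0.32), NPC1 (0.41) and ATG16L1 (0.15) rose, and NPC1 measured 42.0, 18.4 and 40.9 CPM in the low dose libraries. Without low dose replicate 1 or 3 the count became 26 or 25, without low dose replicate 2 it was 1, and without high dose replicate 2 it was 5. The shares of all genes called in these fits are not given here.

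No member passed between high and low dose for Liriopis (0% of all genes in either fit), Longan (0.0178%) or Zizyphi (0.0533%) in the 54-library fit. At an unadjusted p under 0.05 there were 0, 2 and 2 members, and DESeq2 called none. In the 52-library fit Longan had 2 called members, NPC2 (-0.21) and NPC1 (0.17), beside 5.7%, and Zizyphi had 0 beside 0.237%. NPC2, the soluble partner of NPC1 in cholesterol export, measured 29.8, 27.9 and 30.5 CPM at the high and 34.3, 32.8 and 34.4 CPM at the low dose of Longan.

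Both extracts of a set could be compared at 500 µg/mL. Yijin-tang was below Soshiho-tang for 4 of 43 members beside 3.72% of all genes: NPC1 (-0.49, adjusted p = 0.0315), SQSTM1 (-0.46, adjusted p = 4.58e-05), NEU1 (-0.32, adjusted p = 0.00229) and CTSD (-0.24, adjusted p = 0.0213). SQSTM1 kept its call under all 11 alternatives. NPC1 lost it on leaving out any 1 of the 5 libraries (-0.53 to -0.45), CTSD without Soshiho-tang replicate 2 (-0.18) or Yijin-tang replicate 2 (-0.19) or 3 (-0.23), and NEU1 without Soshiho-tang replicate 3 (-0.24, adjusted p = 0.183). The 52-library fit called 7 members beside 5.13%, these 4 with TFE3 (-0.28), CTSB (0.25) and NBR1 (0.18). Liriopis was below Schisandrae for SQSTM1 alone (-0.35, SE 0.07, adjusted p = 0.0117), beside 0.0947% of all genes, or 0.444% in the 52-library fit, where SQSTM1 was again the 1 member called. This call was lost without Liriopis replicate 3 (-0.31, adjusted p = 0.186) or Schisandrae replicate 3 (-0.33, adjusted p = 0.141). Longan and Zizyphi differed in 0 members beside 0.0237%, or 0.0533% in the 52-library fit, with 2 members at an unadjusted p under 0.05 and none by DESeq2.

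The step from low to high dose was also compared between the extracts of a set. In set 8 it differed for 6 of 43 members beside 4.38% of all genes, with SQSTM1 at -0.67 for Yijin-tang minus Soshiho-tang (SE 0.11, adjusted p = 0.000103). The 52-library fit found that 3 members differed beside 1.85%: SQSTM1 (-0.44), NPC1 (-0.43) and TFE3 (-0.37). In set 9 no member differed beside 0.00592% (1 at an unadjusted p under 0.05), and SQSTM1 differed in the 52-library fit (-0.38) beside 0.0592%. In set 10 none differed, beside 0% and 1.26%, with 0 members at an unadjusted p under 0.05 in the 54-library fit.

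SQSTM1 was called in 3 of 18 comparisons with the vehicle, the most of any member in the 54-library fit, and in 2 in the 52-library fit. The call not made there was Yijin-tang low dose, with 375, 523 and 359 CPM, where replicate 2 alone stood high. SQSTM1 measured 349, 351 and 373 CPM in the vehicle, 480.1 and 499.5 CPM in Soshiho-tang high dose and 451, 447 and 471 CPM in Schisandrae high dose. All 5 of these extract libraries lay above all 3 vehicle libraries. At the lower doses of these extracts no such gap was seen: Schisandrae medium dose gave 369, 376 and 381 CPM, Schisandrae low dose 369, 349 and 351 CPM, and Soshiho-tang low dose 359.6 and 367 CPM, values that overlap or adjoin the vehicle's. In the other high doses SQSTM1 measured 367, 338 and 361 CPM (Yijin-tang), 369.9, 365 and 340.4 CPM (Liriopis), 369.5, 365 and 370.1 CPM (Longan) and 369, 355 and 364 CPM (Zizyphi). Each of these sets overlapped the vehicle libraries. In the single libraries it measured 402, 759 and 946 CPM from low to high dose of Polygalae Radix and 401, 495 and 1775 CPM from low to high dose of Aucklandiae Radix. Polygalae medium and high and Aucklandiae high dose stood above every replicated library, and the other 3 single libraries did not.

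**Figure D2:**
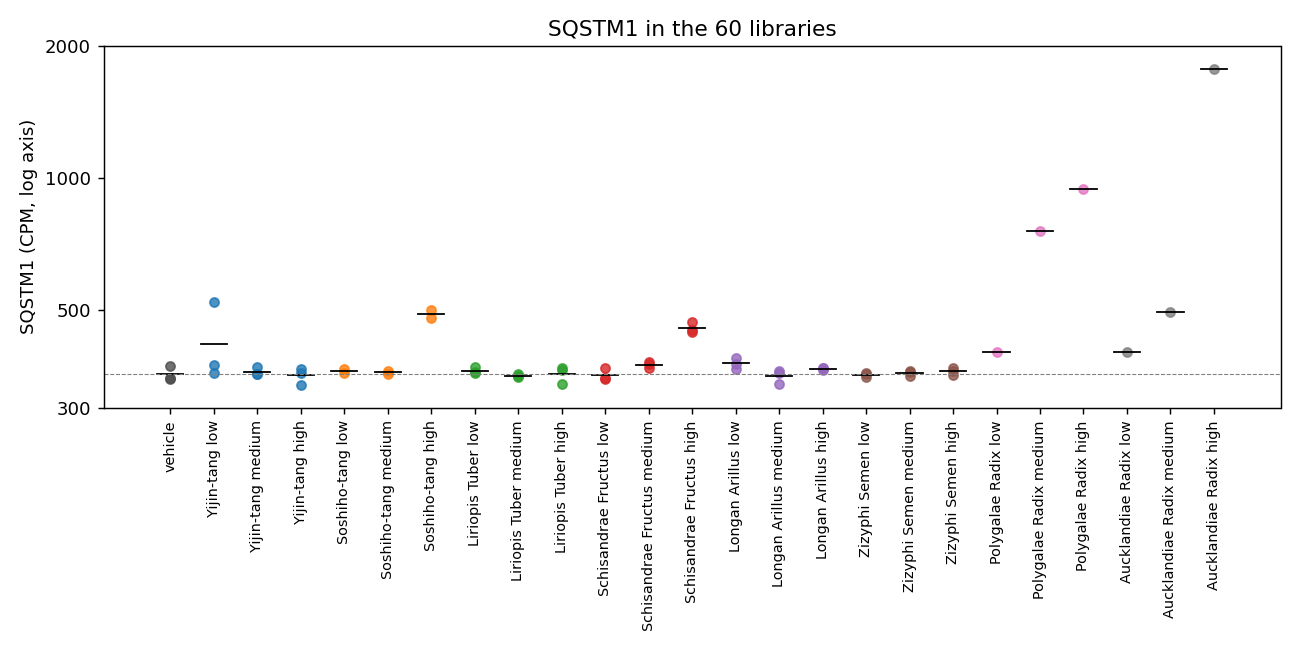
SQSTM1 in CPM (log axis) in each of the 60 libraries (points) by group, with group means (bars) and the vehicle mean (dashed line). Soshiho-tang high dose (480.1 and 499.5) and Schisandrae high dose (447 to 471) lie above the vehicle libraries (349 to 373), and Polygalae medium and high (759 and 946) and Aucklandiae high (1775) lie above all replicated groups.

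NBR1, which like p62 gathers ubiquitinated cargo, measured 94.0, 98.3 and 98.5 CPM in the vehicle and 83.8 and 82.6 CPM in Soshiho-tang high dose, below all vehicle libraries. CALCOCO2, the receptor NDP52 for bacteria and mitochondria, gave 26.1, 28.6 and 25.9 CPM in the vehicle and 20.8 and 24.4 CPM in Soshiho-tang high dose. Its difference from the vehicle was below 0 in 18 of 18 comparisons, and called in 1 of them. OPTN and TAX1BP1, which also recruit damaged mitochondria or protein aggregates, were called in 0 of 18 comparisons with the vehicle in either fit, with values of -0.10 to 0.11 and -0.09 to 0.04 in the 54-library fit.

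Among the ATG8 proteins, which coat the autophagosome membrane and bind receptors, GABARAP was below the vehicle in 17 of 18 comparisons. The 54-library fit called none of the 18 (adjusted p 0.305 at the lowest), and DESeq2 called none. The 52-library fit called 17, with values from -0.59 to -0.24 over the 18. The vehicle libraries measured 78.5, 78.5 and 103 CPM, so that replicate 3 stood above the others. High dose libraries gave 71.3, 67.6 and 65.6 CPM (Yijin-tang), 68.0, 62.8 and 64.6 CPM (Liriopis), 71.5, 64.3 and 68.7 CPM (Schisandrae), 69.0, 66.6 and 65.8 CPM (Longan) and 64.9, 68.5 and 72.6 CPM (Zizyphi). All 15 lay below all 3 vehicle libraries. In Soshiho-tang high dose it measured 58.1 CPM in replicate 2 and 82.3 CPM in replicate 3, and in Yijin-tang low dose 69.8, 147 and 69.4 CPM. Leaving out vehicle replicate 3 as well, an alternative chosen after seeing the data, left 4 of 18 calls (Soshiho-tang high, Liriopis high and medium and Schisandrae medium dose), with values from -0.43 to -0.10, whereas leaving out vehicle replicate 1 or 2 gave 18 calls each. Between high and low dose GABARAP was called only for Yijin-tang in the 54-library fit (-0.48) and for none of the 6 extracts in the 52-library fit, where Yijin-tang stood at -0.03. In the 17 calls against the vehicle, the vehicle set and the extracts cannot be told apart.

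**Figure D3:**
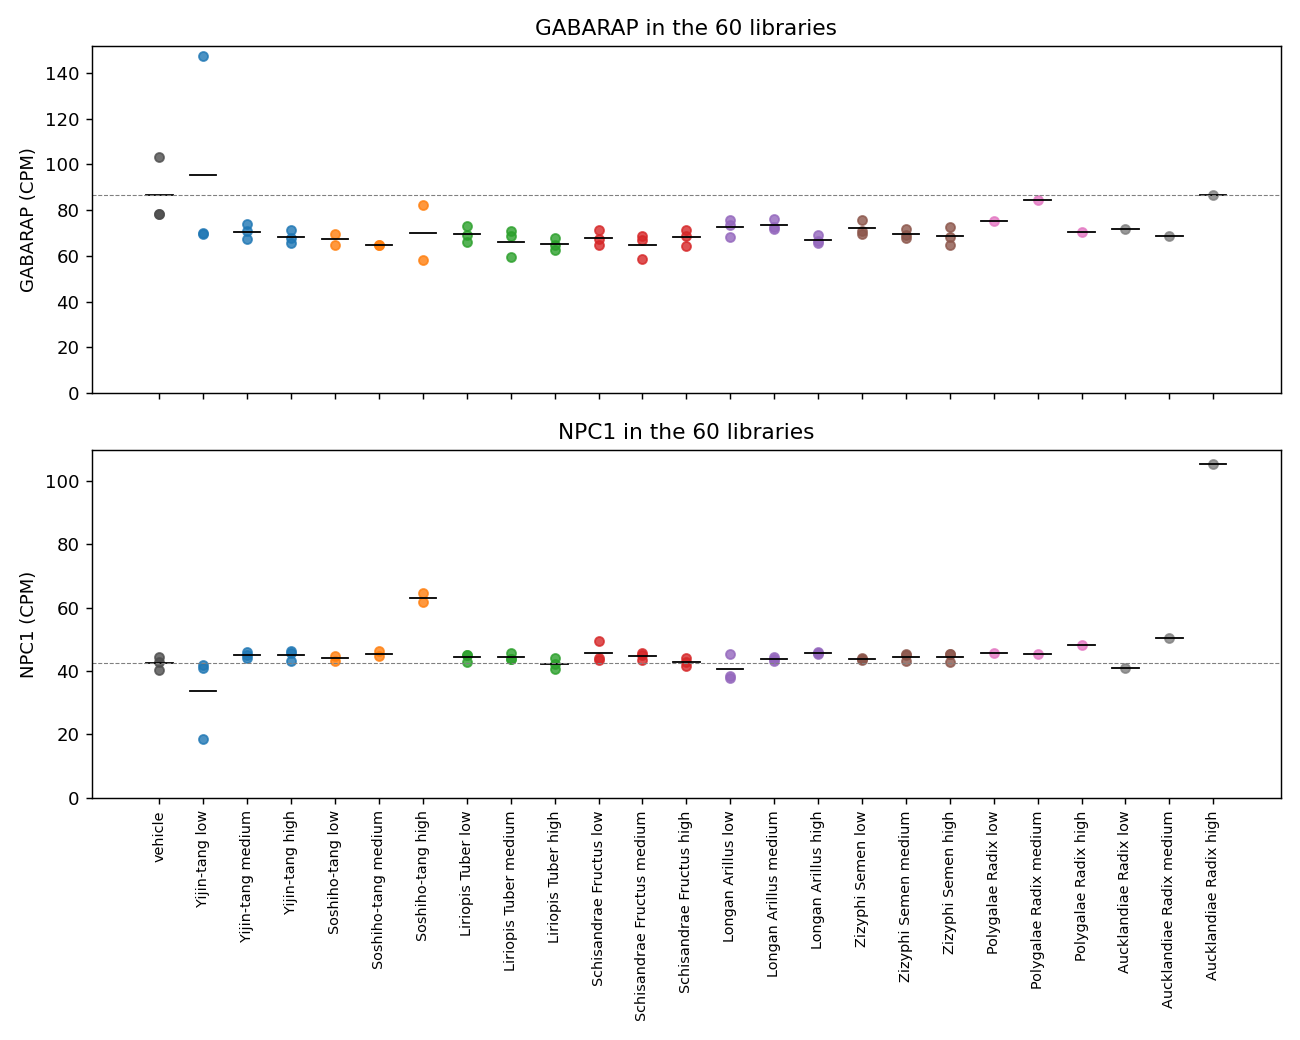
GABARAP (top) and NPC1 (bottom) in CPM in each of the 60 libraries (points) by group, with group means (bars) and the vehicle mean (dashed line); axes start at 0. GABARAP stands at 78.5, 78.5 and 103 in the vehicle and near 70 in most extract groups, with 147 in 1 library of Yijin-tang low dose, and NPC1 stands out in Soshiho-tang high dose (64.6 and 61.7) and Aucklandiae high dose (105).

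MAP1LC3B, which encodes LC3B, the usual protein marker of autophagosomes, measured 43.1, 43.9 and 45.6 CPM in the vehicle. It was called in 0 of 18 comparisons in the 54-library fit and in 1 in the 52-library fit (Schisandrae low dose, -0.19). GABARAPL1 was called in none of the 18 in either fit, with values of -0.17 to 0.12 in the 54-library and -0.27 to 0.11 in the 52-library fit, and GABARAPL2 was called in 1, Yijin-tang low dose, in the 54-library fit and in 0 in the 52-library fit.

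Initiation and conjugation genes had 2 calls in the 54-library fit, ATG16L1 in Soshiho-tang high dose and BECN1 in Yijin-tang low dose. ULK1, the kinase that starts autophagosome formation, was above the vehicle in 16 of 18 comparisons. It measured 25.1, 22.4 and 22.4 CPM in the vehicle and 28.7, 27.0 and 28.2 CPM in Liriopis high dose, and was called in 0 of 18 in the 54-library fit and in 2 in the 52-library fit. Leaving out vehicle replicate 1, 2 or 3 from the latter as well gave 5, 1 and 0 calls of ULK1. BECN1, a subunit of the lipid kinase complex that acts next, was above the vehicle in 18 of 18 comparisons, by 0.03 to 0.23, with 1 call. UVRAG, a partner of BECN1, measured 24.4, 22.2 and 20.6 CPM in the vehicle and 26.4 and 24.9 CPM in Soshiho-tang high dose, where it passed only in the 52-library fit. WIPI1, which binds the lipid made by that complex, and ATG5, ATG7 and ATG12, of the conjugation machinery, were called in 0 of 18 comparisons in either fit. Their values ran from -0.33 to 0.16 (WIPI1), -0.13 to 0.19 (ATG5), -0.05 to 0.18 (ATG7) and -0.06 to 0.09 (ATG12) in the 54-library fit.

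In the TFEB axis, TFE3 was called in 0 of 18 comparisons with the vehicle in the 54-library fit. Between high and low dose of Soshiho-tang it was called, but this call was lost on leaving out any 1 library of these doses. TFE3 measured 91.4 and 91.2 CPM at the high dose of Soshiho-tang and 69.3 and 72.7 CPM at the low dose. The vehicle gave 76.4, 73.6 and 80.7 CPM, so both high dose libraries lay above all low dose and vehicle libraries. TFEB gave 17.2 and 14.8 CPM at the high dose of Soshiho-tang and 12.5 and 13.8 CPM at the low dose. In the vehicle it gave 14.6, 14.9 and 16.5 CPM. High dose and vehicle libraries overlapped, whereas both low dose libraries lay below all high dose and vehicle libraries. TFEB was called in 0 of 18 comparisons with the vehicle in either fit. MCOLN1, the lysosomal calcium channel TRPML1, was called in none of the 18 either, with values of -0.05 to 0.21. RRAGC, whose protein recruits mTORC1 and TFEB to the lysosome, was below the vehicle in 16 of 18 comparisons of the 54-library fit, with none called and a lowest value of -0.19. The 52-library fit called it in 1 (Soshiho-tang high dose, -0.29, libraries at 18.8 and 23.6 CPM against 23.3, 24.1 and 21.0 CPM).

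Among membrane and cholesterol proteins, NPC1 was called against the vehicle in 1 of 18 comparisons in either fit, Soshiho-tang high dose. It measured 64.6 and 61.7 CPM in Soshiho-tang high dose, against 44.5, 42.9 and 40.4 CPM in the vehicle, 46.3 and 44.7 CPM in Soshiho-tang medium dose, 44.9 and 43.1 CPM in Soshiho-tang low dose and 45.8, 43.2 and 46.3 CPM in Yijin-tang high dose. LAMP1 and LAMP2, the main lysosomal membrane glycoproteins, were called in 0 of 18 comparisons in either fit, with values of -0.05 to 0.05 and -0.04 to 0.08. LAMP1 stood at 395, 385 and 398 CPM in the vehicle. NPC2 measured 24.95 CPM in Soshiho-tang high dose replicate 2 and 35.35 CPM in replicate 3. Vehicle (30.4, 32.8 and 33.4 CPM) and Soshiho-tang low dose libraries (30.9 and 29.4 CPM) all lay between these values. The 52-library fit holds only replicate 2 of that high dose.

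Of the enzymes, GLA measured 31.9 and 41.3 CPM in Soshiho-tang high dose and 27.4, 28.96 and 29.8 CPM in the vehicle, with the higher value in replicate 3, the library with reads of blood cell genes. NEU1 gave 54.3 and 60.8 CPM against 51.3, 46.2 and 49.6 CPM, again highest in that library. CTSD gave 890 (889.9) and 822 CPM in Soshiho-tang high dose against 761, 729.7 and 773 CPM in the vehicle and 780 (780.2), 677 and 722 CPM in Yijin-tang high dose. CTSB gave 70.3 and 77.1 CPM against 82.8, 84.5 and 88.8 CPM, below all vehicle libraries. CTSA, the protease that protects NEU1, CTSL and CTSZ were called in 0 of 18 comparisons with the vehicle in either fit. HEXA, a subunit of beta-hexosaminidase, was called once in the 54-library fit (Yijin-tang low dose) and in 0 in the 52-library fit, and PSAP once in each.

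The proton pump members had 2 calls against the vehicle in the 54-library fit, both in Yijin-tang low dose. ATP6V0D1, ATP6V1A, ATP6V1B2, ATP6V1C1, ATP6V1D and ATP6AP1 were called in 0 of 18 comparisons with the vehicle in either fit. ATP6V0A1, a membrane subunit, was below the vehicle in 18 of 18 comparisons (-0.27 to -0.03), with 1 call in the 54-library fit and 3 in the 52-library fit. Leaving out vehicle replicate 1, 2 or 3 from the 52-library fit as well gave 0, 12 and 1 calls. ATP6V1C1 and ATP6V1H, of the cytosolic V1 sector that uses ATP, were above the vehicle in 18 of 18, by 0.00661 to 0.12 and by 0.00425 to 0.37. All of these comparisons share the 3 vehicle libraries, so a common sign over them is not independent evidence.

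Genes of the same pathways that are not members were counted from lists of other autophagy genes (38 tested), lysosome genes (44), proton pump genes (12) and TFEB and mTORC1 genes (29). In Soshiho-tang high dose against vehicle, where 7.93% of all genes were called, 1 other autophagy gene was called (lower), 7 lysosome genes (4 higher, 3 lower), 2 pump genes (1 higher, 1 lower) and 3 TFEB and mTORC1 genes (1 higher, 2 lower). The 52-library fit, with 12.7% of all genes called, gave 2 (1 and 1), 11 (4 higher, 7 lower), 3 (1 higher, 2 lower) and 5 (3 higher, 2 lower). The one change beyond 2-fold in both fits was ATP6V1B1, a pump subunit isoform, which fell by 1.105 (SE 0.10, adjusted p = 1.6e-11) with Soshiho-tang high dose. In Schisandrae high dose the counts were 1, 0, 0 and 0 beside 0.693% of all genes, the autophagy gene being lower, and 2, 2, 2 and 3 beside 6.39% in the 52-library fit.

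Aucklandiae Radix at the high dose, in its single library, stood far from all other samples for most members. Of the 43, 24 were at least 1.5-fold above the vehicle mean, beside 15.9% of all genes, and 0 were at least 1.5-fold below, beside 20.3%. The median of the members was 0.72 on the log2 scale, beside -0.01 over all genes, and 42 members lay above the vehicle mean and 1, CTSZ, below. In 27 of 43 members this library was above every one of the other 59, beside 21.6% of all genes, and in 1 it was below all of them, beside 19%. The 44 members took 0.826% of its counts, against 0.405% to 0.513% in the other libraries. With no replicate, none of these values has a test.

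The largest ratio was that of CTSL, cathepsin L, at 46.5 CPM against 4.04, 4.38 and 4.45 CPM in the vehicle, a log2 ratio of 3.415. No other library exceeded 5.93 CPM. SQSTM1 had a ratio of 2.31, GLA 1.90 (107 CPM against 27.4 to 29.8), MCOLN1 1.73 (28.6 CPM against 7.90 to 9.14) and GABARAPL1 1.665 (20.4 CPM against 6.18 to 6.51). The only member below was CTSZ, at 218 CPM against 295.5, 291 and 302 CPM, a ratio of -0.44. By role, 7 of 9 enzymes were at least 1.5-fold above, among them CTSD (1.44), PSAP (1.24), NEU1 (1.23), CTSA (0.94) and CTSB (0.85). In the TFEB axis 4 of 5 were above, TFE3 (1.16), FLCN (1.13) and RRAGC (0.72) with MCOLN1, and TFEB (0.39) was not. Of the receptors, OPTN (1.65) and TAX1BP1 (1.301) were above with SQSTM1, whereas CALCOCO2 (0.43) and NBR1 (0.21) were not.

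The ATG8 proteins differed in their ratios to the vehicle in this library. MAP1LC3B (1.43, 119 CPM against 43.1 to 45.6) and GABARAPL1 were above, and GABARAP (0.00669) and GABARAPL2 (0.09) stood near the vehicle mean. For GABARAP that mean includes vehicle replicate 3 at 103 CPM. GABARAP measured 86.5 CPM here, against 68.8 and 71.9 CPM at the medium and low dose of Aucklandiae. Its median over all other libraries was 69.05 CPM. Of 8 initiation and conjugation genes, WIPI1 (1.41) and ATG16L1 (1.14) were past 1.5-fold, and ULK1 (0.41), UVRAG (0.47), ATG5 (0.22), ATG7 (0.18), ATG12 (0.22) and BECN1 (0.11) were not. NPC1 (1.305; 105 CPM against 40.4 to 44.5) and NPC2 (0.70) were past it, LAMP2 (0.52) and LAMP1 (0.42) were not. In the proton pump, ATP6V0A1 (0.94), ATP6V1C1 (0.91), ATP6V1D (0.87) and ATP6V0D1 (0.61) were past it, and ATP6V1H (0.51), ATP6V1B2 (0.25), ATP6AP1 (0.17) and ATP6V1A (0.14) were not. Among members whose 250-base window held CACGTG, MCOLN1 (1.73), CTSD (1.44), NEU1 (1.23), CTSA (0.94), RRAGC (0.72) and ATP6V0D1 (0.61) were past 1.5-fold. LAMP1 (0.42), which held the most matches, was not. Other members past 1.5-fold that had a window, among them CTSL, SQSTM1, GLA, GABARAPL1 and OPTN, held none. PSAP, CTSB and ATP6V1C1 were past 1.5-fold but had no window to search. Any link between these letters and the ratios was not tested.

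Genes outside the member list were more mixed in the same library. Of other autophagy genes 13 of 38 were at least 1.5-fold above and 2 below, of lysosome genes 10 and 7 of 44, of pump genes 6 and 2 of 12, and of TFEB and mTORC1 genes 7 and 2 of 29. The library also differed in composition, with ribosomal protein genes at 3.71% of counts (4.65% to 11.5% elsewhere) and mitochondrial genes at 7.60% (8.31% to 13.6%). Its total was 25694429 counts, within the range of the others, and the part of composition in these ratios was not tested. At the medium and low doses of Aucklandiae no member was 1.5-fold above (3.18% and 2.79% of all genes) or below (5.29% and 3.95%), and the largest values at the medium dose were CTSD (0.49; 1061 CPM) and SQSTM1 (0.47; 495 CPM), followed by CTSL (0.29), GABARAPL1 (0.26) and NPC1 (0.24). The lowest there were GABARAP (-0.32), ATP6V1A (-0.21), RRAGC (-0.12), CALCOCO2 (-0.11) and NBR1 (-0.10). At the low dose values ran from GABARAP (-0.26), CTSL (-0.20), ATP6V1B2 (-0.18), ATP6V1A (-0.17) and WIPI1 (-0.14) up to BECN1 (0.11), ATP6AP1 (0.12), SQSTM1 (0.17), CTSD (0.20) and ULK1 (0.29). CTSL measured 5.25 CPM at the medium and 3.73 CPM at the low dose.

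**Figure D4:**
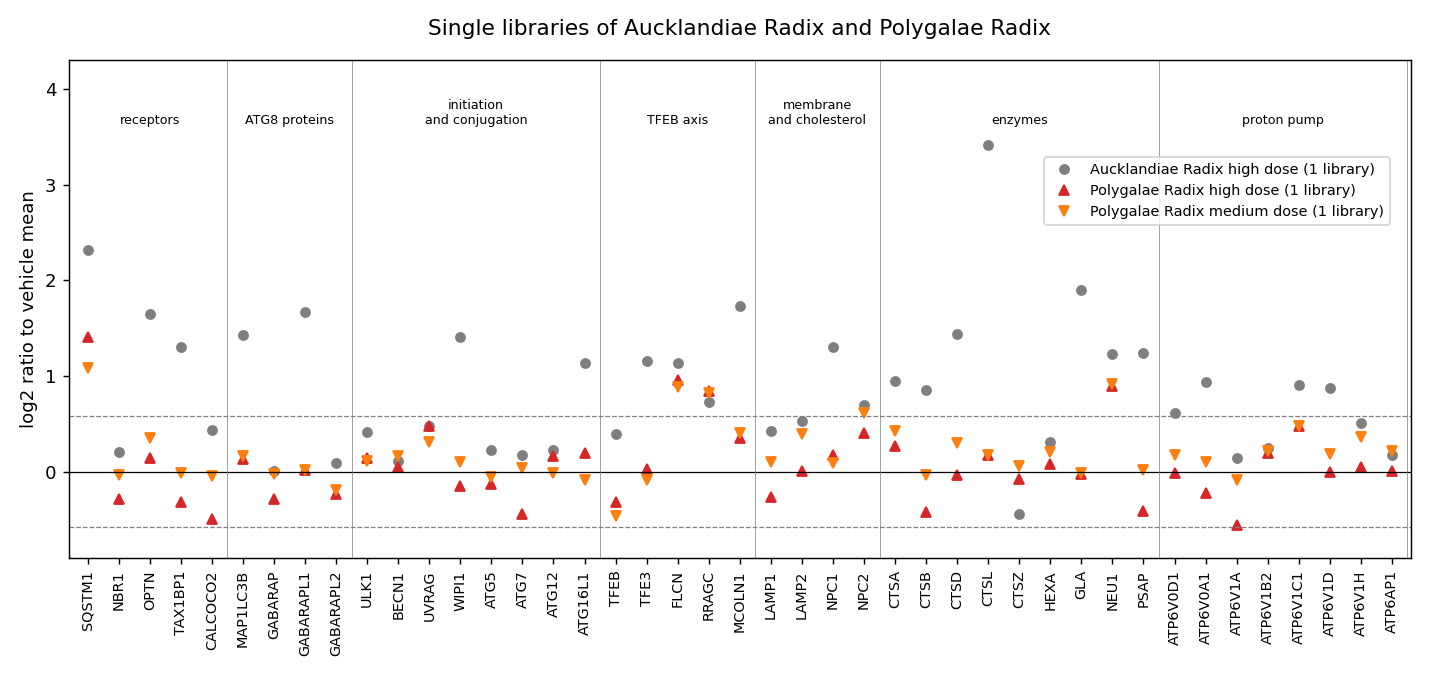
Log2 ratio to the vehicle mean of the 43 tested members (horizontal axis, by role) in the single libraries of Aucklandiae high dose (circles) and Polygalae high and medium dose (triangles); dashed lines mark 1.5-fold. Aucklandiae high dose lies above 0 for all members but CTSZ, up to 3.415 for CTSL, whereas Polygalae exceeds 1.5-fold only for SQSTM1, FLCN, RRAGC and NEU1, and for NPC2 at the medium dose.

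Polygalae Radix had fewer members past 1.5-fold. The high dose library had the lowest sum of epithelial markers of all 60, 8407 CPM against 12121, 12989 and 14141 CPM in the vehicle, and the part of this in its ratios was not tested. At the high dose 4 of 43 members were at least 1.5-fold above the vehicle, beside 5.39% of all genes, and 0 were below, beside 8.99%. They were SQSTM1 (1.41), FLCN (0.96; 31.1 CPM against 17.4, 16.0 and 14.5 CPM), NEU1 (0.90; 91.2 CPM against 51.3, 46.2 and 49.6 CPM) and RRAGC (0.84; 40.9 CPM against 23.3, 24.1 and 21.0 CPM). At the medium dose the same 4 genes were past 1.5-fold, at 1.09, 0.89, 0.92 and 0.82, joined by NPC2 (0.61), making 5 beside 4.1% of all genes, and 0 were below, beside 4.4%. At the low dose 0 were above or below, beside 3.93% and 3.78%. The medians of the members at high, medium and low dose were 0.01, 0.11 and 0.02.

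The next largest ratios in Polygalae high dose were UVRAG (0.48) and ATP6V1C1 (0.48), and the lowest were ATP6V1A (-0.56), CALCOCO2 (-0.50), ATG7 (-0.44), CTSB (-0.43) and PSAP (-0.42). At the medium dose the lowest were TFEB (-0.47), GABARAPL2 (-0.19), TFE3 (-0.09), ATP6V1A (-0.09) and ATG16L1 (-0.09). At the low dose they were TFEB (-0.27), GABARAP (-0.20), WIPI1 (-0.19), CTSL (-0.14) and ATP6V0A1 (-0.13), and the highest were FLCN (0.22), ULK1 (0.20), GABARAPL1 (0.19), SQSTM1 (0.17) and OPTN (0.15). In Polygalae high dose ATP6V1A measured 85.3 CPM, its lowest value in all libraries, against 135, 125 and 118 CPM in the vehicle. TFEB stood at 12.3, 11.1 and 12.6 CPM from high to low dose, below all 3 vehicle libraries (14.6, 14.9 and 16.5 CPM). A TFEB level below the vehicle was not particular to Polygalae. At its medium and high dose, however, TFEB was lower than in any library of another extract. Among the replicated extract doses TFEB was below the vehicle in 15 of 18 comparisons and above it in 3, with 0 called. Soshiho-tang low dose replicate 2, at 12.46 CPM, was below the Polygalae low dose library at 12.64 CPM. Genes that stood high in Aucklandiae high dose, such as CTSL (0.17), GLA (-0.03), MCOLN1 (0.35), GABARAPL1 (0.01) and MAP1LC3B (0.13), did not stand out in Polygalae high dose. SQSTM1, FLCN, RRAGC and NEU1 were thus high in both extracts of set 11, each in single libraries without a vehicle of that set.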

How the data were processed

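RNA of HT29 cells was sequenced in 60 libraries (100 bp paired reads from a directional kit, per the labels' protocols). The deposited values are estimated counts per gene, which the authors made with RSEM 1.3.3 from reads trimmed by Trim Galore 0.6.5 and aligned by STAR 2.7.3a to GRCh38, per the submitters' processing notes; whether counting used strand is not given in the sources used here. They were rounded to whole numbers before use. Genes were kept with edgeR's filterByExpr (16890 genes) and scaled by TMM. One edgeR 4.0.16 quasi-likelihood model (R 4.3.3) with a term for group took in the 19 groups that have replicates (54 libraries), so that all groups share 1 estimate of the spread (biological coefficient of variation 9.71%). Values called log2 are log2 fold changes of this model, tested at a Benjamini-Hochberg adjusted p of 0.05 over all genes. The model gave 30 comparisons: 18 extract doses with the vehicle, 6 of high with low dose, 3 between extracts and 3 of dose effects. CPM values use TMM over all 60 libraries. For single libraries the log2 ratio of CPM (prior count 2) to the vehicle mean is given, with 1.5-fold as the size named. Gene positions are from GENCODE on GRCh38.

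Every member is named at least once, called members by size of change. The members and lists were chosen with earlier results of these data known. Alternatives were another scaling (RLE), DESeq2 1.42.0, no filter, a replicate block, only the groups compared, the fit without both libraries that stand apart, each library left out in turn, and, for ratios, a prior count of 0.5.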

Additional observations from a re-analysis of the deposited data

Results flagged for a closer look

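The step from low to high dose differed between Yijin-tang and Soshiho-tang for 6 members, tested as a difference of differences in the model of 54 libraries. For SQSTM1 the step was -0.24 with Yijin-tang and 0.43 with Soshiho-tang on the log2 scale, a difference of -0.67 (adjusted p = 0.000103). For TFEB it was -0.34 and 0.28, a difference of -0.62 (adjusted p = 0.0395). For GLA it was -0.19 and 0.38, a difference of -0.58 (adjusted p = 0.0278). For NEU1 it was -0.25 and 0.20, a difference of -0.46 (adjusted p = 0.00470). For CTSD it was -0.20 and 0.11, a difference of -0.31 (adjusted p = 0.0393). For NBR1 it was 0.04 and -0.31, a difference of 0.35 (adjusted p = 0.0364). In the fit without Yijin-tang low dose replicate 2 and Soshiho-tang high dose replicate 3, SQSTM1 still differed (-0.44, adjusted p = 1.12e-05), and TFEB (-0.44), GLA (-0.11), NEU1 (-0.22), CTSD (-0.29) and NBR1 (0.21) did not pass. SQSTM1 kept its call under all 15 alternatives, NEU1 lost it without Soshiho-tang high dose replicate 3 (-0.38), and GLA lost it without that library (-0.38), either low dose library of Soshiho-tang (-0.59 and -0.56), Yijin-tang high dose replicate 2 or 3 (-0.58 and -0.57) or Yijin-tang low dose replicate 2 (-0.32). NBR1 lost it without either Soshiho-tang low dose library, Soshiho-tang high dose replicate 3 or Yijin-tang high dose replicate 2 or 3 (0.31 to 0.39). TFEB and CTSD lost it without any Soshiho-tang library of these doses, Yijin-tang high dose replicate 2 or 3 or Yijin-tang low dose replicate 2, with values from -0.73 to -0.33 and from -0.38 to -0.24.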

How the results depend on the processing

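Without both libraries that stand apart, the count of called members became 3 for Yijin-tang, 2 for Liriopis, 2 for Schisandrae, 1 for Longan and 1 for Zizyphi high dose against the vehicle, 1, 8 and 2 for high against low dose of Yijin-tang, Soshiho-tang and Longan, 7 for Yijin-tang against Soshiho-tang and 19 over the 12 medium and low dose comparisons. GABARAP was called in 17 of 18 comparisons with the vehicle, or in 18, 18 and 4 when vehicle replicate 1, 2 or 3 was left out too, the last set chosen after seeing the data. With no filter the counts were 2 for Soshiho-tang high dose, 3 for Soshiho-tang high against low dose, 0 for Liriopis against Schisandrae and 5 over the medium and low doses. A fit of only the compared groups gave 2 for Soshiho-tang high dose, 0 and 1 for high against low dose of Yijin-tang and Soshiho-tang and 2 for Yijin-tang against Soshiho-tang. The share of all genes called is not given for fits with no filter, RLE scaling, the replicate block or only the compared groups. Those counts therefore do not set members apart.

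Leaving out 1 library at a time gave 3 to 5 called members for Soshiho-tang high dose, 1 to 26 and 1 to 4 for high against low dose of Yijin-tang and Soshiho-tang, 0 to 1 for that of Schisandrae, 2 to 4 for Yijin-tang against Soshiho-tang, 0 to 1 for Liriopis against Schisandrae, 0 to 23 over the medium and low doses and 1 to 19 over the differences of dose effects. GABARAPL2 reversed without Yijin-tang low dose replicate 2, to -0.018 at the low dose against vehicle and 0.018 for high against low dose, in both fits that left it out, and leaving out 1 library at a time it ran from -0.018 to 0.73 and from -0.73 to 0.018. The cause of these changes was not tested. RLE scaling changed none of these counts, and DESeq2 gave 11 for Soshiho-tang high dose, 15 and 7 for high against low dose of Yijin-tang and Soshiho-tang, 6 for Yijin-tang against Soshiho-tang, 12 over the medium and low doses and 9 over the differences of dose effects.

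The main model did not pair libraries by replicate number. In 0 of 27 comparisons did every same-numbered pair correlate above 0.1. Comparisons of Soshiho-tang had 2 such pairs and could not meet this rule, which asked for at least 3. Low correlations do not show whether libraries were paired by design. With the replicate block the counts were 8 for Soshiho-tang high dose and 14 for Yijin-tang high against low dose, and no count moved by over 1.5 times. What depth limits was not tested; the lowest library total was 18161717 counts, and the vehicle means of WIPI1 and CTSL were 4.97 and 4.29 CPM.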
